A study of Mus musculus with 12 samples.

Results

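The genes that encode the proteins of the cytosolic ribosome were followed in 12 retinal libraries from mouse pups. Members were all entries of the count table whose symbol is Rps or Rpl with a number and an optional lower-case ending, together with Rpsa, Rplp0, Rplp1 and Rplp2, provided that they held at least 10 reads over all libraries. The symbol rule matched 85 entries. Of these, 84 reached 10 reads, out of 24484 genes with at least 1 read, and they comprise 33 genes named for the small subunit and 51 named for the large subunit. The entry left out was Rpl10l, a retrogene of Rpl10 known from the testis, with 0 reads. The members just inside the minimum were Rpl39l with 13 reads and Rpl3l with 14.

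The study set up 4 groups of 3 libraries, WT and Casp1 KO retina in normoxia and after oxygen-induced retinopathy (OIR). OIR is a mouse model of retinopathy of prematurity, in which a stay in high oxygen thins the vessel bed of the young retina and the tissue is short of oxygen once the pups breathe room air. The WT groups are C57BL/6 pups at postnatal day 15. Their OIR group spent postnatal days 7 to 12 in 75% oxygen and the next 3 days in room air, and their normoxia group stayed at 21% oxygen throughout. The other groups are labelled Casp1 KO, or Caspase1 knockout, after the gene of caspase-1, the protease activated by inflammasomes. For them the labels give normoxia or 3 days after OIR, while the age, the oxygen level and the knockout allele are not stated. Pups of both sexes were used, and the number of animals behind a library is not stated, so that the spread between these samples may be technical. In the main tests the p-values rest on that spread as shared over genes, and a gene's own spread between replicates did not enter. The library kit yields reads next to the poly(A) tail, so a long transcript gives no more of them than a short one.

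Casp1 itself went against the labels. The 6 libraries labelled WT held between 0 and 3 Casp1 reads, and the 6 labelled Casp1 KO held between 10 and 45. Since reads at the 3′ end can lie outside a deleted part, and the allele is not stated, this does not settle the genotype, and every direction between genotypes below is one between libraries labelled WT and libraries labelled Casp1 KO. Total counts per library ran from 3391203 in Casp1 KO normoxia replicate 2 to 22815830 in WT normoxia replicate 2, the other 10 libraries holding 4049035 to 5657873. Levels are given in CPM, the reads of a gene scaled to the library's total with TMM factors. A gene with 0 reads could still have a level of up to 3 reads, or 0.131 to 0.885 CPM depending on the library, which covers counting error only. The markers of rods, the main cell type of the mouse retina, summed to 49155 CPM or more in every library. One library stood apart for the ribosomal protein genes, WT OIR replicate 3, and the members' calls, counts of calls and medians that rest on it are also given without it.

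The cytosolic ribosome is built from a small subunit, which holds the decoding site, and a large subunit, which forms peptide bonds and carries the exit tunnel for the new chain. Its proteins are made in matched amounts, and surplus protein that finds no ribosome is degraded. Many of their mRNAs begin with a stretch of pyrimidines, the terminal oligopyrimidine tract, through which mTORC1 and the protein LARP1 set how strongly these mRNAs are translated and how long they persist. Photoreceptors renew their outer segments every day and depend on steady protein synthesis.

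The sequence around the start of transcription was compared between the members and all genes. RefSeq annotation of GRCm38.p6 gave 75 start regions for 63 of the members. A run of at least 6 pyrimidines (C or T) on the coding strand, within the 15 bases on each side of the annotated start, was present in 40 of these regions (53.3%), against 29.2% of the 32851 regions of all genes. The motif CCGGAAG, a core of ETS family sites, was found on either strand of the region from 250 bases before to 50 bases after the start in 34.7% of the members' regions, against 8.86% of all. TATAAA, on either strand of the 250 bases before the start alone, was found in 5.33%, against 12.4% of all. The windows below are shown because these members carried the differences described further on, and because some of them have the run and others do not. Each spans 30 bases, 5′ to 3′ on the gene's own strand, from RefSeq on GRCm38.p6, and capitals mark the longest pyrimidine run where it has at least 6 bases.
Rplp2 (chr7:141447636-141447665, plus): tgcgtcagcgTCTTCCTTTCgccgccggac
Rps24 (chr14:24490663-24490692, plus): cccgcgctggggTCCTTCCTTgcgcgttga
Rps9 (chr7:3704026-3704055, plus): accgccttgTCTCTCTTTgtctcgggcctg
Rpl18 (chr7:45718056-45718085, plus): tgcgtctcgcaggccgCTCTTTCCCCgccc
Rpl35 (chr2:39005117-39005146, minus): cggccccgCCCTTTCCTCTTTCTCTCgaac
Rpl7a (chr2:26910792-26910821, plus): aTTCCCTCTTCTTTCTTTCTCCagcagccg
Rpl26 (chr11:68901551-68901580, plus): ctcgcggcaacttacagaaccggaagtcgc
Rps7 (chr12:28635939-28635968, minus): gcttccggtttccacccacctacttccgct
Rpl24 (chr16:55966260-55966289, plus): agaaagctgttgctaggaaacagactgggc
Rpl27 (chr11:101442230-101442259, plus): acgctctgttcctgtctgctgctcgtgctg
The longest run in this set, of 21 pyrimidines, is that of Rpl7a. Rpl24 and Rpl26 hold no run longer than 2 and 3 pyrimidines at the annotated start. Rps24 has another annotated start (chr14:24490738-24490767), not shown, with no run longer than 4. A match or its absence describes only these letters in this window.

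Together the members took 1706864 reads, 2.28% of all reads of the series. Their levels spanned a wide range although each protein is needed in a single copy per ribosome in most cases. By mean CPM over the 12 libraries, 54 members lay at 100 CPM or more, 26 between 10 and 100, and 4 below 10, with a median of 188 CPM. The 10 highest members held 39.1% of the members' reads. Since reads are 3′ tags, these levels can be set side by side per transcript, with the limit that reads from near-identical pseudogenes may have been dropped or split.

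Rps14, a small subunit protein known for its loss in a form of myelodysplastic syndrome, stood first. Its mean was 2096 CPM, and it alone held 9.09% of the members' reads. Rplp1, an acidic protein of the lateral stalk, which recruits the elongation factors, followed with 1284 CPM, then the small subunit genes Rps21 with 849 CPM, Rps20 with 780 CPM and Rps29 with 737 CPM. Neighbours in that order beyond the first few could not be told apart by their spread, since Rps21 ranged from 685 to 1040 CPM over the libraries and Rps20 from 713 to 867 CPM. At the other end, Rpl3l and Rpl39l were at 0.249 CPM each on average, with at most 5 reads in any library. Among the low members were genes of core ribosomal proteins. Rps6, the classical substrate of S6 kinase, was at 12.8 CPM, Rpl10, which joins the large subunit late in its assembly, at 14.4 CPM, and Rpl15 at 16.8 CPM.

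**Figure D1:**
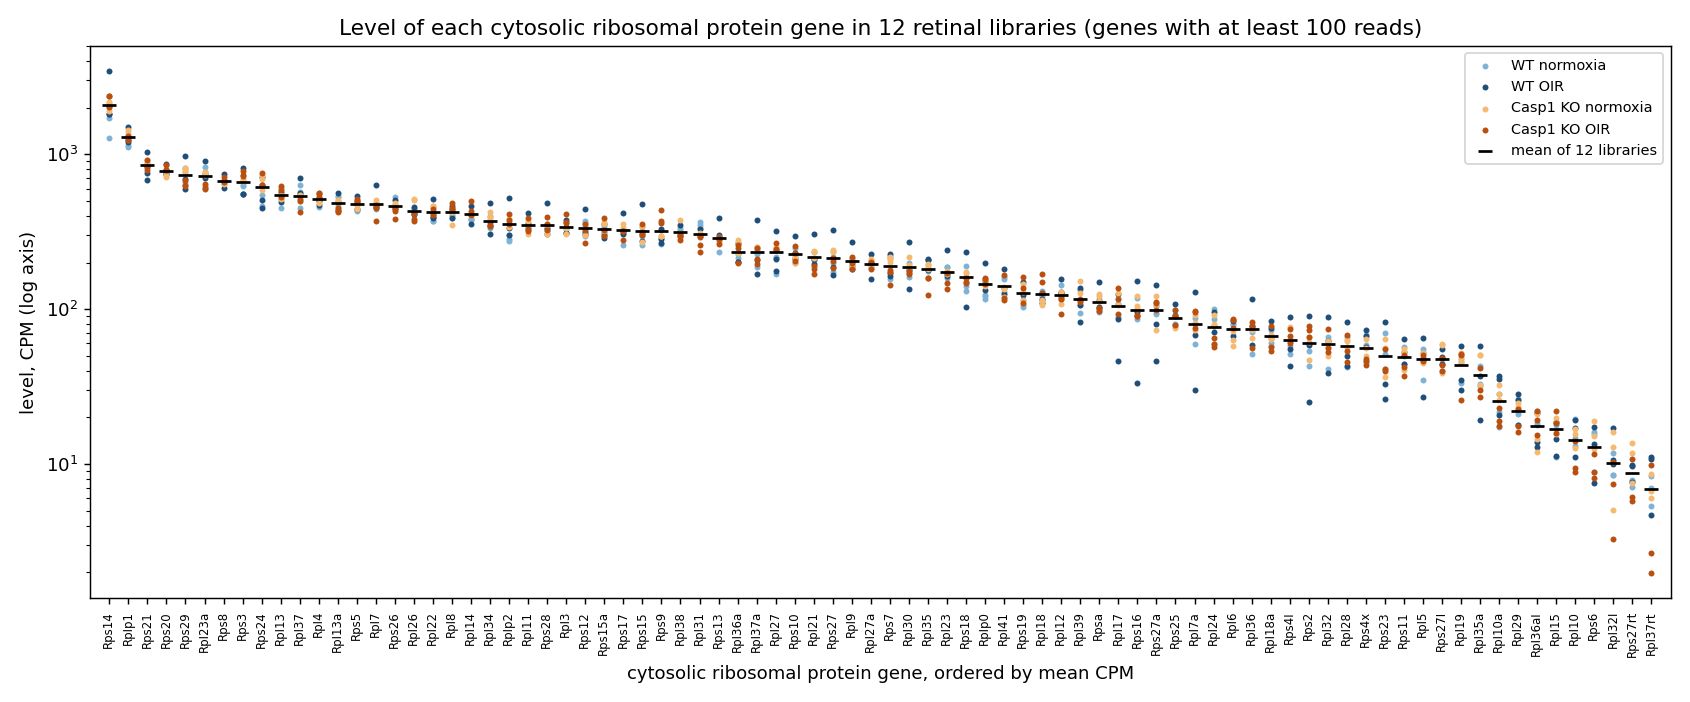
Level of the 82 ribosomal protein genes with at least 100 reads, in CPM on a log axis, with 1 point per library coloured by group and a black bar for the mean of 12 libraries. Rps14 lies alone at the top with a mean of 2096 CPM, most genes lie between 10 and 1000 CPM, and the points of a gene usually lie close together compared with the distance between genes.

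These low levels cannot be read as few transcripts without regard to the many processed pseudogenes of this family. In the last 300 bases of each member's first annotated transcript (GENCODE vM21), all stretches of 75 bases, the read length, were compared with the transcripts of every other gene. Of the 84 members, 28 shared no such stretch, 23 shared under 50% and 33 shared 50% or more. Rpl10 shared 100% of them with 10 other genes, 9 of them pseudogenes. For Rps6 the share was 81.4%, for Rpl15 77.4% and for Rpl36al 66.8%. For Rplp1, the second highest member, it was 52.2%. The median level was 182 CPM for members with none shared, 317 CPM for those with under 50% and 186 CPM for those with 50% or more. How reads with several matches were counted is not given in the sources used here, and its part in these levels was not tested. The table also lists 12 entries for pseudogenes named after a member (its symbol followed by -ps), for 9 members, which together held 1729 reads, 0.101% of the reads on the members. Pseudogenes under other names, such as Gm13611, the largest sharer of Rpl36, are not in that count, so it does not give the reads on all pseudogenes.

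Of the 84 members, 81 are annotated as protein coding and 3 as pseudogenes (Rps4l, Rpl32l and Rpl37rt). Small nucleolar RNAs, which guide the chemical modification of ribosomal RNA, are often carried in introns of these genes. Here 29 members (34.5%) hosted 56 annotated small nucleolar or Cajal body RNA genes on their own strand, Rplp2 with Snora52 and Rpl13a with 4 of them among those described below. Another annotated gene overlapped 29 members, for instance Sphk2 on the other strand of Rpl18, Arpc5l and Wdr38 on the other strand of Rpl35 and Gm28037 on the same strand as Rpl24. The strand setting of the counting is not given in the sources used here, so the counts of these members may include reads of the overlapping gene.

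Where the family has a second gene for one protein, the housekeeping form led in counted reads in most pairs. Rps27 had a mean of 215 CPM against 47.3 CPM for Rps27l, a paralog known as a p53 target, and 8.80 CPM for the retrogene Rps27rt. Of the 75-base stretches at the 3′ end, 100% for Rps27 and 87.2% for Rps27rt occur in other genes. Each of these genes is the largest sharer of the other, so their reads can hardly be told apart and their levels not ranked. Rpl36a, which is X-linked, was at 235 CPM against 17.5 CPM for its autosomal partner Rpl36al, and Rpl39, also X-linked, at 116 CPM against 0.249 CPM for Rpl39l, the form known from the testis. The shared part was 100% for Rpl36a and 66.8% for Rpl36al, so reads lost to or gained from other genes may enter that difference. Rpl3 was at 341 CPM against 0.249 CPM for Rpl3l, the form known from heart and skeletal muscle. The pair of Rps4 genes differed from this. X-linked Rps4x had a mean of 56.3 CPM and ranged from 43.6 to 73.4 CPM, while Rps4l, annotated as a transcribed processed pseudogene, had a mean of 63.4 CPM and ranged from 43.1 to 88.3 CPM, so that their levels overlapped. None of these paralogs passed the test in any of the 5 comparisons, where 0.263% to 2.61% of all genes passed in each direction.

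The share of all counts that fell on the members was nearly constant, apart from 1 library. In the plot of reads by library, 11 libraries lay between 2.08% and 2.39%. WT normoxia held 2.08%, 2.22% and 2.21% in replicates 1 to 3, a mean of 2.17% ± 0.0776 (SD, n = 3). Casp1 KO normoxia held 2.30%, 2.34% and 2.39%, a mean of 2.34% ± 0.0468 (SD, n = 3), and Casp1 KO OIR held 2.27%, 2.37% and 2.20%, a mean of 2.28% ± 0.0826 (SD, n = 3). The normoxia groups did not overlap, and the Casp1 KO groups did. WT OIR held 2.13%, 2.19% and 2.80%, a mean of 2.37% ± 0.371 (SD, n = 3), or 2.16% ± 0.0470 (SD, n = 2) without replicate 3. Both subunits were high in WT OIR replicate 3, with 1.44% of counts on small subunit and 1.36% on large subunit genes, against means of 1.04% and 1.12% in WT normoxia.

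**Figure D2:**
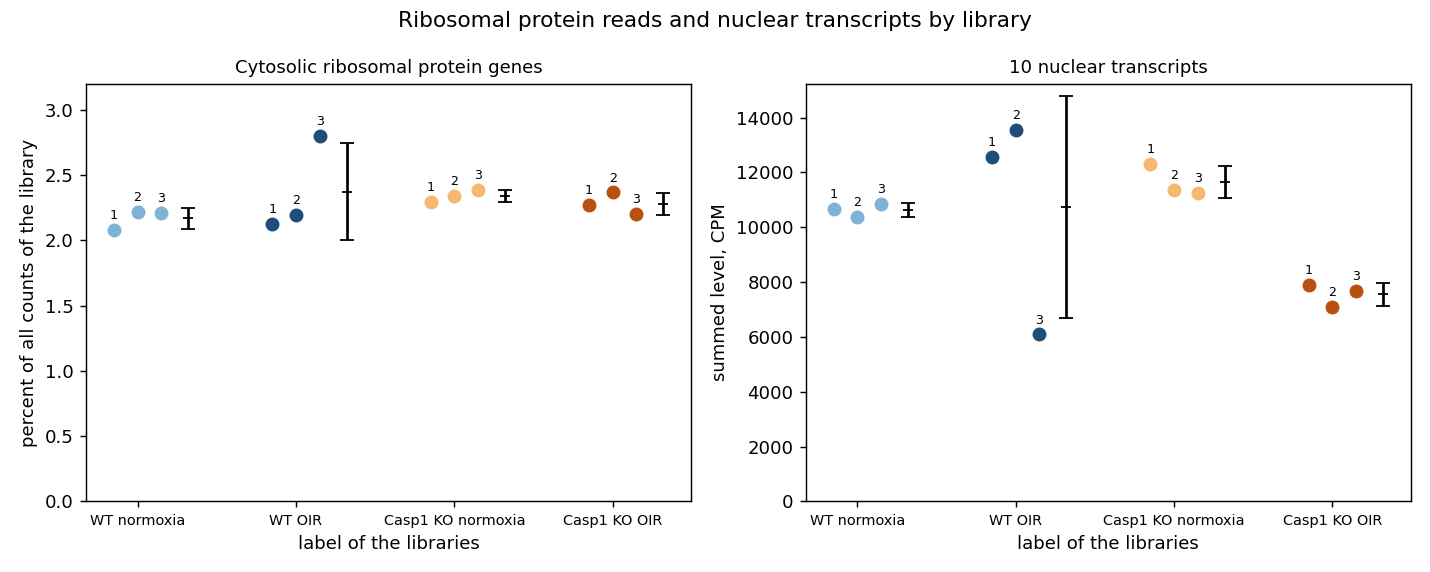
Left, percent of each library's counts on the 84 ribosomal protein genes. Right, summed CPM of a list of 10 nuclear transcripts, 1 of which was at 0 throughout. Points are libraries with their replicate number, and bars give the mean and SD of 3 libraries. WT OIR replicate 3 has the highest ribosomal protein share, 2.80%, and the lowest sum of nuclear transcripts, 6090 CPM.

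In WT OIR replicate 3, 52 of the 84 members had their highest level of all libraries, while 14.3% of the 8552 genes with at least 1000 reads did so. The level there over the mean of the other 11 libraries was above 1 for 75 members, and its median over the members was 1.29, against 0.992 for the genes with at least 1000 reads. The ratio was largest for Rps23, which contributes to the decoding centre, at 1.76, closely followed by Rps14 with 1.75 and Rpl37a with 1.71. Among members with at least 1000 reads it was smallest for Rpl36al, with 0.719. The same library differed in transcripts outside the ribosome. Nuclear transcripts such as Malat1 and Meg3 summed to 6090 CPM there, against 12582 and 13562 CPM in the other WT OIR libraries, 10369 to 12311 CPM in the normoxia groups and 7093 to 7901 CPM in Casp1 KO OIR. Markers of red blood cells summed to 90.9 CPM there, against 277 and 397 CPM in the other WT OIR libraries. Other lists were higher there, so the rise was not particular to the ribosomal protein genes. Translation factors summed to 9049 CPM, against 7876 and 7873 CPM in WT OIR replicates 1 and 2, and nuclear respiratory chain genes to 18147 CPM, against 15055 and 14877 CPM. Mitochondrially encoded transcripts summed to 24870 CPM, against 19616 and 19854 CPM, and rod markers to 59149 CPM, against 53687 and 49155 CPM. The part of these differences in the ribosomal protein levels was not tested.

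A second WT OIR library deviated in the other direction for a few members. In WT OIR replicate 1, 8 of the 82 members with at least 100 reads lay under 0.6 of the mean of the other 11 libraries, where no other library had more than 2. These 8, chosen after their values were seen, were Rps16, Rpl7a, Rps2, Rpl17, Rps27a, Rpl35a, Rps23 and Rpl5. Rps16 stood at 33.5 CPM there, and between 86.2 and 153 CPM in the other 11 libraries. Rpl7a stood at 29.9 CPM there, and between 59.6 and 130 CPM elsewhere. In all, 21 of the 84 members had their lowest level of the 12 libraries in this one, among them the abundant Rps21, Rps29, Rps3 and Rps24, while Rps14, Rplp1 and Rps20 lay within the range of the other libraries. No share over all genes was computed for these low values, so they cannot be called particular to the members. Of the 8552 genes with at least 1000 reads, 11.4% had their highest level in this library, as did 2 of the members. The part of the 3′ end found in other genes was 0% for Rps16 and Rpl5 and 85.4% for Rps27a, and its part in these values was not tested.

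**Figure D3:**
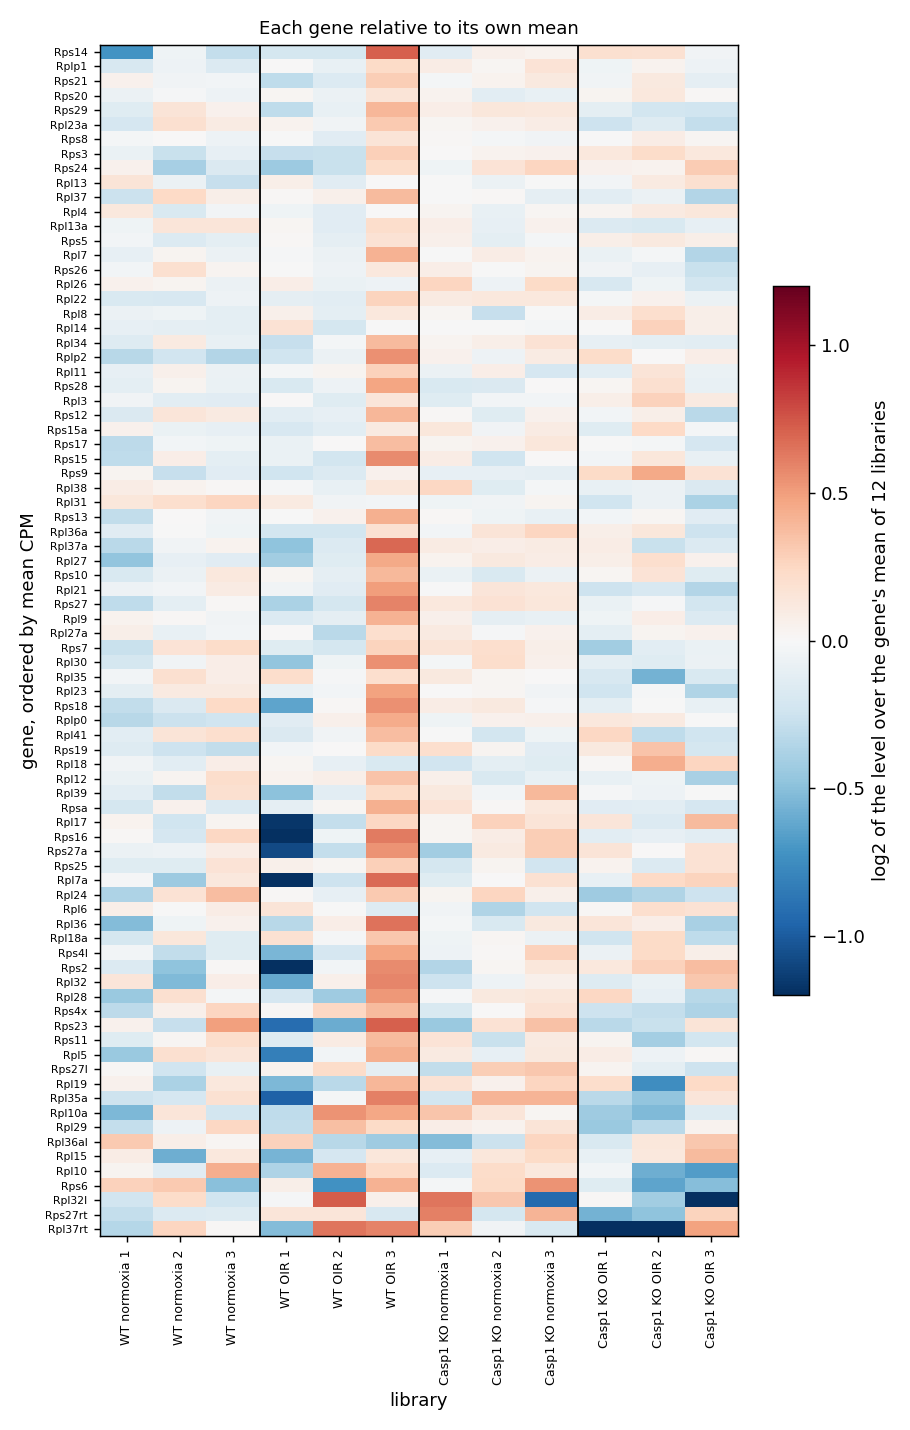
Level of each of the 82 genes with at least 100 reads relative to its own mean over 12 libraries, as log2 with 0.5 CPM added to both, with a column per library and genes ordered by mean CPM. Colours end at 1.2 in both directions. WT OIR replicate 3 is red for most genes, and the darkest blue cells of WT OIR replicate 1 are Rps16, Rpl7a, Rps2, Rpl17 and Rps27a.

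The first comparison asked what OIR changed in retina labelled WT. With all 6 libraries, 2 of 84 members rose (2.38%) and 0 fell by edgeR's quasi-likelihood test with Benjamini-Hochberg adjustment, against 1.58% of all 22853 genes tested that rose and 2.29% that fell. Here and below, the shares over all genes include many genes with few reads, which can hardly pass. At least 10 counts in every library were held by 82 of the 84 members, but by only 11678 of the 22853 genes. Shares among genes of like level are not given. At an unadjusted p under 0.05, 6 members were higher and 0 lower, where 6.06% and 6.52% of all genes were. The median log2 fold change of the members was 0.09, against 0.00 for all genes, and the fitted value was above 0 for 57 of 84 and below 0 for 27, where 52.8% and 47.2% of all genes were. Between the groups, 2 members did not overlap on the higher side and 1 on the lower side, where 8.53% and 8.16% of all genes did so.

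Rps14 and Rplp2 were the members that passed. Rps14 had 1271, 2022 and 1717 CPM in normoxia and 1816, 1813 and 3450 CPM in OIR, a log2 fold change of 0.49 (SE 0.107, adjusted p = 0.000455). The groups overlapped, and replicates 1 and 2 of OIR lay inside the range of normoxia. Rplp2, a partner of Rplp1 in the stalk, had 282, 302 and 277 CPM in normoxia and 301, 337 and 519 CPM in OIR, a log2 fold change of 0.42 (SE 0.125, adjusted p = 0.0284). Here, too, the groups overlapped by 1 library on each side. Rplp0, the base of the same stalk, did not pass (log2 fold change 0.41, SE 0.140, adjusted p = 0.0780), but its groups did not overlap, with 116, 122 and 123 CPM in normoxia and 132, 152 and 198 CPM in OIR. Without WT OIR replicate 3 its log2 fold change was 0.23 (adjusted p = 0.416).

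Neither call held without WT OIR replicate 3. Rps14 then had a log2 fold change of 0.11 (adjusted p = 0.562) and Rplp2 one of 0.14 (adjusted p = 0.609). Rps14 was also lost without WT normoxia replicate 1 (0.33, adjusted p = 0.253) and Rplp2 without any one of the WT normoxia libraries (adjusted p = 0.0773 to 0.217). Both were lost with filterByExpr, which drops genes with low counts (adjusted p = 0.189 and 0.152), and with DESeq2 (0.637 and 0.132). Over all alternatives, the adjusted p ran from 6.01e-07 to 0.637 for Rps14 and from 0.00170 to 0.609 for Rplp2. In this and the other comparisons, with the filter of at least 1 read, the quasi-likelihood fit estimated an infinite prior, so that a gene's own spread between replicates did not enter its test. With filterByExpr the prior here had 13.7 degrees of freedom beside 4 from the libraries.

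Without WT OIR replicate 3 the direction of the members turned. Their median log2 fold change became -0.08, against -0.01 for all genes, 0 members rose and 5 fell (5 of 84, against 2.14% of all genes that rose and 2.9% that fell). The 5 were Rps23, Rps16, Rps27a, Rpl17 and Rpl7a, with log2 fold changes from -0.86 for Rps23 to -0.60 for Rpl17, and each of them is among the 8 that were low in WT OIR replicate 1. Rps23 had 51.7, 41.1 and 70.2 CPM in normoxia and 26.2 and 32.8 CPM in the 2 remaining OIR libraries, which lay below. Rps16 had 100, 86.2 and 118 CPM in normoxia, and 33.5 and 95.6 CPM in OIR, so that only replicate 1 lay below. With filterByExpr as well, 3 of the 5 stayed called, Rps23, Rps27a and Rpl17, where 3.26% of all genes rose and 4% fell. WT OIR replicates 1 and 3 therefore lay on opposite sides of normoxia for these genes, as the plot of single genes shows for Rps23, Rps16 and Rpl7a.

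**Figure D4:**
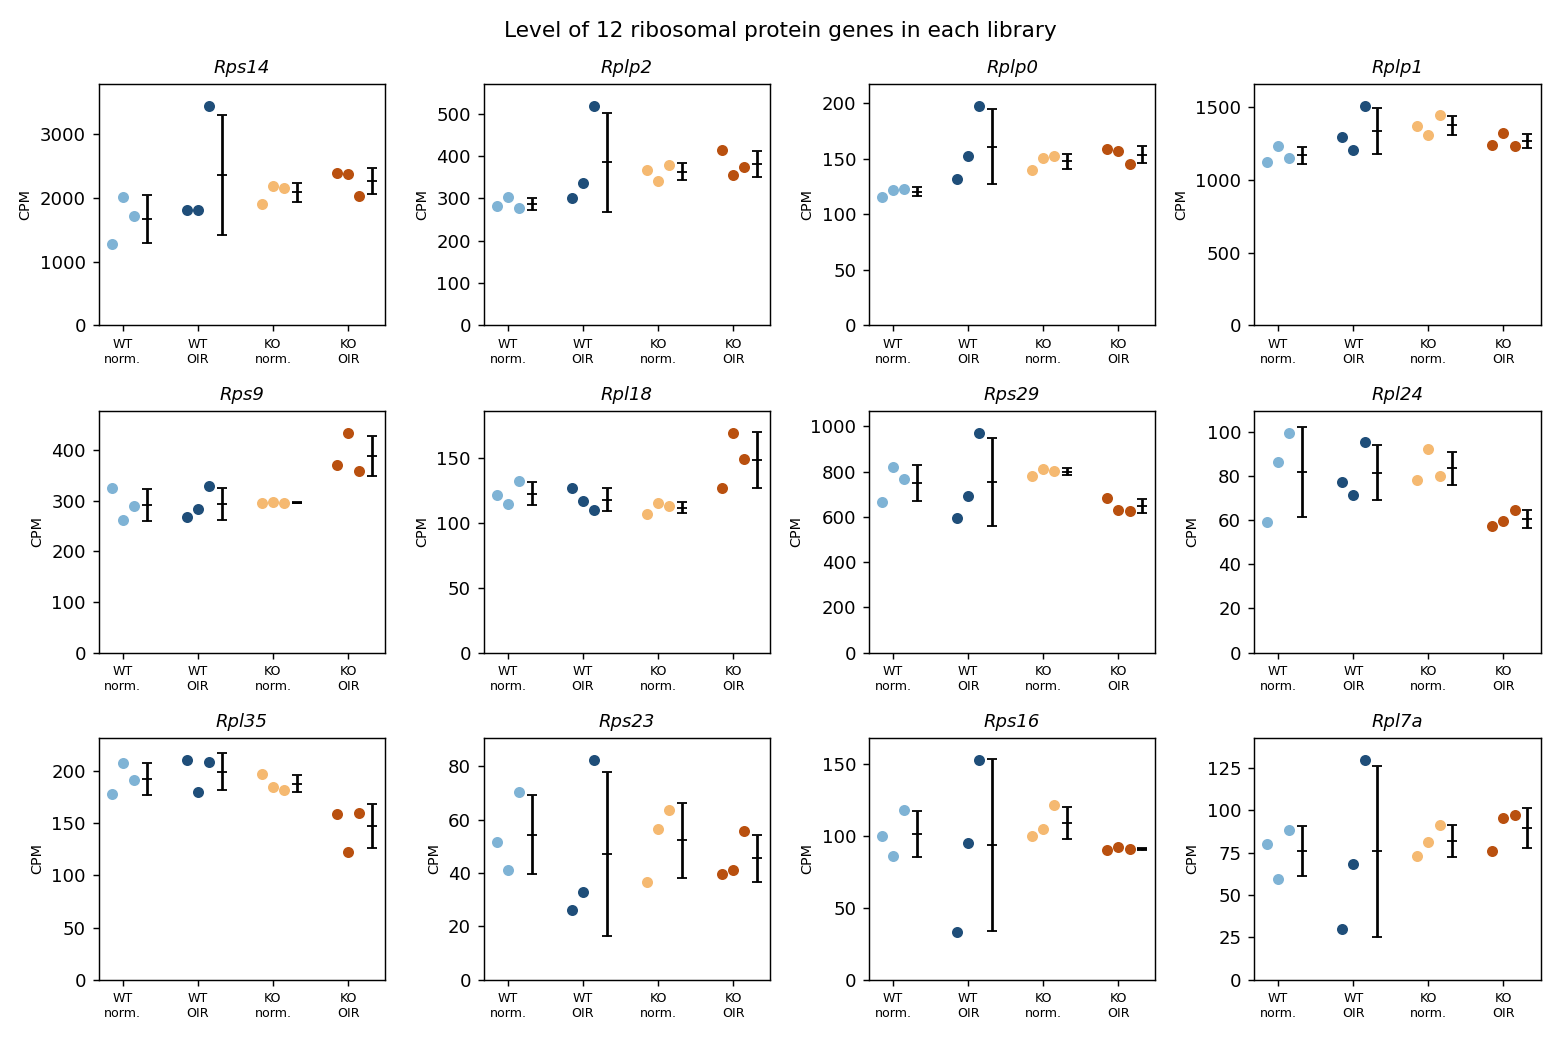
Level of 12 ribosomal protein genes in CPM, with 1 point per library in the order of replicates 1 to 3 and bars for the mean and SD of 3 libraries; norm., normoxia. Rps9 and Rpl18 are highest in Casp1 KO OIR and Rps29, Rpl24 and Rpl35 lowest there on average, while the third WT OIR library is the highest of its group for Rps14, Rplp2, Rplp0, Rplp1, Rps9, Rps29, Rpl24, Rps23, Rps16 and Rpl7a.

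In retina labelled Casp1 KO, OIR moved individual members both ways. Of 84, 2 rose and 7 fell (10.7% together) by edgeR's quasi-likelihood test with Benjamini-Hochberg adjustment, against 2.61% of all 22387 genes tested that rose and 2.03% that fell. At an unadjusted p under 0.05, 8 members were higher and 17 lower, where 7.27% and 6.33% of all genes were. The median log2 fold change was -0.09 for the members and 0.01 for all genes, with 35 members above 0 and 49 below, where 49.8% and 50.2% of all genes were. The groups did not overlap for 7 members on the higher and 21 on the lower side, where 8.56% and 8.58% of all genes did so.

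The members that rose were Rps9 and Rpl18. Rps9 binds early in the assembly of the small subunit. It had 296, 297 and 295 CPM in normoxia and 371, 434 and 359 CPM in OIR, a log2 fold change of 0.41 (SE 0.0837, adjusted p = 0.000106). No OIR library came near the normoxia libraries, and the call held under every alternative run, with adjusted p from 7.44e-05 to 0.0172. Rpl18, of the large subunit, had 107, 115 and 113 CPM in normoxia and 126, 169 and 149 CPM in OIR, a log2 fold change of 0.43 (SE 0.110, adjusted p = 0.00452). Its groups did not overlap either. Without Casp1 KO OIR replicate 2 its log2 fold change was 0.31 (adjusted p = 0.155), without Casp1 KO normoxia replicate 1 it was 0.39 (0.0539), and over all alternatives adjusted p ran from 0.00177 to 0.155. Rpl3, a large subunit protein near the peptide bond forming centre, did not pass, with a log2 fold change of 0.24 (adjusted p = 0.0661).

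Of the 7 that fell, Rpl23a, Rpl26 and Rpl35 line the exit of the peptide tunnel, Rps29 and Rps7 belong to the small subunit, and Rpl21 and Rpl24 to the large subunit. Rps29 had 781, 810 and 803 CPM in normoxia and 681, 632 and 625 CPM in OIR, a log2 fold change of -0.29 (SE 0.0724, adjusted p = 0.00281). Rpl24, mutated in the Belly spot and tail mouse, had the largest of these changes, with 78.4, 92.1 and 80.2 CPM in normoxia and 57.1, 59.6 and 64.8 CPM in OIR, a log2 fold change of -0.45 (SE 0.138, adjusted p = 0.0300). Rpl35 had 197, 185 and 182 CPM in normoxia and 159, 123 and 160 CPM in OIR, a log2 fold change of -0.34 (SE 0.101, adjusted p = 0.0213). In each of these genes every OIR library lay below every normoxia library. The others, Rpl23a, Rpl26, Rpl21 and Rps7, had log2 fold changes from -0.33 to -0.27 with adjusted p from 0.00885 to 0.0190, and only Rpl26 overlapped, since normoxia replicate 2 had 415 CPM and OIR replicate 2 had 416 CPM.

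These 9 calls were the same with DESeq2 and with filterByExpr. With all 12 libraries in one fit, which brings in the spread of WT OIR, 1 member was called higher, Rps9, and 0 lower, Rps29 then having an adjusted p of 0.0595. Leaving out Casp1 KO normoxia replicates 1, 2 and 3 in turn gave 4, 4 and 2 members lower, and leaving out Casp1 KO normoxia replicate 1 or Casp1 KO OIR replicate 2 gave 1 higher. Other transcripts moved between the same groups. Nuclear transcripts summed to 11252 to 12311 CPM in normoxia and 7093 to 7901 CPM in OIR, lens markers to 993 to 1043 CPM and 1764 to 1978 CPM, and Muller glia markers to 2026 to 2188 CPM and 3056 to 3237 CPM. Markers of the retinal pigment epithelium summed to 1040 to 1083 CPM and 1616 to 1738 CPM, and those of retinal ganglion cells to 2937 to 3160 CPM and 1615 to 1660 CPM. In this comparison 12 of 14 lens genes, 6 of 8 of the Muller glia list and 5 of 9 of the pigment epithelium list rose, where 2.61% of all genes did, and 5 of 8 of the ganglion cell list and 4 of 9 nuclear transcripts fell, where 2.03% did. Their part in the ribosomal protein changes was not tested, and in whole retina a change in the number of cells of a type cannot be told apart from a change in the RNA per cell.

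In normoxia, several ribosomal protein genes were higher in libraries labelled Casp1 KO than in those labelled WT. Here 6 of 84 members were higher (7.14%) and 0 lower by edgeR's quasi-likelihood test with Benjamini-Hochberg adjustment, against 0.476% of all 22480 genes tested that were higher and 0.56% that were lower. Of those 22480 genes, 11491 held at least 10 counts in every library, as did 82 of the members, so the share among genes of like level may be larger. At an unadjusted p under 0.05, 14 members were higher and 1 lower, where 4.08% and 4.55% of all genes were. The median log2 fold change was 0.09, against -0.01 for all genes, and 60 of 84 members had a fitted value above 0 and 24 one below, where 50.6% and 49.4% of all genes did. The groups did not overlap for 11 members on the higher and 2 on the lower side, where 5.91% and 6.53% of all genes did so.

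Of the 3 stalk genes, Rplp2 and Rplp1 passed. Rplp2 had 282, 302 and 277 CPM in WT and 368, 340 and 380 CPM in Casp1 KO, a log2 fold change of 0.34 (SE 0.0815, adjusted p = 0.00515). Rplp1 had 1121, 1230 and 1147 CPM in WT and 1369, 1309 and 1441 CPM in Casp1 KO, a log2 fold change of 0.24 (SE 0.0619, adjusted p = 0.0142). For Rplp0 the groups did not overlap either, with 116, 122 and 123 CPM against 140, 151 and 152 CPM, but its log2 fold change of 0.30 did not pass (adjusted p = 0.197). The levels of Rplp2 and Rplp1 in Casp1 KO normoxia lay above all 3 WT normoxia libraries. Rplp2 lost its call without WT normoxia replicate 3 (adjusted p = 0.0701) or Casp1 KO normoxia replicate 3 (0.119), within a range of 6.89e-05 to 0.170 over all alternatives.

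Rps14 again had the smallest p, with 1271, 2022 and 1717 CPM in WT and 1910, 2192 and 2159 CPM in Casp1 KO, a log2 fold change of 0.33 (SE 0.0579, adjusted p = 9.26e-06). Its groups overlapped, and WT normoxia replicate 1 was the lowest of all 12 libraries. Without that library the log2 fold change was 0.16 (adjusted p = 0.256), with DESeq2 the adjusted p was 0.481, and over all alternatives it ran from 1.59e-13 to 0.481. Rps24, a small subunit gene mutated in Diamond-Blackfan anaemia, had 637, 465 and 543 CPM in WT and 592, 688 and 732 CPM in Casp1 KO, which overlapped (log2 fold change 0.30, SE 0.0717, adjusted p = 0.00585, with a range from 2.85e-05 to 0.395 over the alternatives, the highest with DESeq2). Rpl22, a large subunit protein that also binds other RNAs, had 373, 371 and 406 CPM against 459, 464 and 465 CPM, a log2 fold change of 0.28 (SE 0.0772, adjusted p = 0.0390). Rpl27 had 168, 218 and 214 CPM against 241, 253 and 249 CPM, a log2 fold change of 0.31 (SE 0.0897, adjusted p = 0.0481). For both the groups did not overlap.

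The number called depended on single libraries. It was 2 without WT normoxia replicate 1, 3 without WT normoxia replicate 3 or without Casp1 KO normoxia replicate 2, and 1 without Casp1 KO normoxia replicate 3, and it was 1 with all 12 libraries in one fit. Between these groups the Muller glia markers also differed, summing to 2818 to 2968 CPM in WT and 2026 to 2188 CPM in Casp1 KO, and the nuclear transcripts summed to 10369 to 10847 CPM and 11252 to 12311 CPM. Their part was not tested. This comparison and that of OIR in WT share the WT normoxia libraries, and that of OIR in Casp1 KO shares the Casp1 KO normoxia libraries, so a low or high library in a shared group enters both. Rps14 and Rplp2, for instance, had log2 fold changes of 0.49 and 0.42 for OIR in WT and of 0.33 and 0.34 here.

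In OIR, 0 of 84 members differed between Casp1 KO and WT by edgeR's quasi-likelihood test with Benjamini-Hochberg adjustment, where 0.263% of all 22774 genes tested were higher and 0.312% lower. DESeq2 and filterByExpr also called 0. At an unadjusted p under 0.05, 4 members were higher and 12 lower, where 3.91% and 4.45% of all genes were. The median log2 fold change was -0.12, against -0.02 for all genes, with 30 members above 0 and 54 below, where 46.6% and 53.4% of all genes were. The groups did not overlap for 2 members on the higher and 9 on the lower side, where 5.41% and 6.52% of all genes did so. The smallest p-values belonged to Rpl35, with a log2 fold change of -0.44 (SE 0.139, adjusted p = 0.132), and Rps9, with 0.40 (SE 0.127, adjusted p = 0.132). In both genes the groups did not overlap, Rps9 having 269, 283 and 330 CPM in WT OIR and 371, 434 and 359 CPM in Casp1 KO OIR.

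Without WT OIR replicate 3 this picture changed direction as well. The median became 0.12, and 10 members were higher and 1 lower in Casp1 KO, against 2.07% of all genes that were higher and 1.58% lower. The 10 were Rpl17, Rpl7a, Rps24, Rps27a, Rps9, Rps3, Rps2, Rps14, Rpl27 and Rps16, and the member lower was Rpl35. Of these, Rpl17, Rpl7a, Rps27a, Rps2 and Rps16 are among those low in WT OIR replicate 1. Rps9 and Rps3 had 269 and 551 CPM in that library, the latter its lowest of all 12, and 283 and 555 CPM in WT OIR replicate 2, against 359 to 434 CPM and 726 to 775 CPM in Casp1 KO OIR. With filterByExpr as well, 9 members were called higher, where 2.87% of all genes were, and 0 lower, where 2.3% were. With all 6 libraries, 12 of 14 lens genes and 4 of 9 of the pigment epithelium list were also higher in Casp1 KO, where 0.263% of all genes were. In the same fit 3 of 5 red blood cell genes were lower, and 1 of 9 nuclear transcripts was higher and 4 lower, where 0.312% of all genes were lower. The lens genes summed to 1764 to 1978 CPM against 608 to 1244 CPM, the 608 CPM being WT OIR replicate 3. The part of these differences was not tested.

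The response to OIR was compared between genotypes as an interaction in all 12 libraries, where a value below 0 means a lower OIR response in libraries labelled Casp1 KO. By edgeR's quasi-likelihood test 0 of 84 members passed after Benjamini-Hochberg adjustment, where 0.604% of all 24484 genes passed above and 0.527% below 0. DESeq2 called 0 too. At an unadjusted p under 0.05 there were 2 members above and 19 below 0, where 4.42% and 5.35% of all genes were. The median was -0.19, against -0.01 for all genes, and 20 of 84 members had a fitted value above 0 and 64 one below, where 47.6% and 52.4% of all genes did. Rps14 had the smallest p, with a difference of -0.38 (SE 0.122, adjusted p = 0.105), or -4.46e-05 without WT OIR replicate 3 (SE 0.0933, adjusted p = 0.9998). Without WT OIR replicate 3 the median was 0.00 and 43 of 84 members lay below 0. Then 3 members passed, all with a larger response in Casp1 KO (where 1.27% of all genes passed above and 1.19% below 0), Rps27a with 0.70, Rpl7a with 0.73 and Rps9 with 0.47, of which Rps9 alone stayed called with filterByExpr (adjusted p = 0.0318, where 1.82% of all genes passed above and 1.73% below 0).

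Seen side by side, OIR gave a fitted value above 0 in both genotypes for 27 members and below 0 in both for 19, while 30 were above 0 in WT and below 0 in Casp1 KO and 8 the reverse. These signs rest on WT OIR replicate 3, without which 30 members lay above 0 and 54 below in WT. Of the members followed whatever their values, Rps6 had a log2 fold change of -0.69 for OIR in Casp1 KO (SE 0.318, adjusted p = 0.281), with all 3 OIR libraries below those of normoxia, at 8.10 to 11.6 CPM against 12.6 to 18.8 CPM, and one of -0.11 in WT (adjusted p = 0.908), or -0.41 without WT OIR replicate 3 (0.673). Rpl41, the smallest ribosomal protein, stayed within 0.17 log2 units in the 4 comparisons of groups, with standard errors of 0.103 to 0.143, and was at -0.20 for OIR in WT without WT OIR replicate 3. Rpl13a, often used as a reference gene in PCR, had log2 fold changes of -0.05 for OIR in WT (SE 0.120), -0.15 there without WT OIR replicate 3 (SE 0.0937) and -0.15 in Casp1 KO (SE 0.0786, adjusted p = 0.382), and in Casp1 KO its groups did not overlap. Rpsa, which is also the laminin receptor, had a log2 fold change of 0.22 for OIR in WT (adjusted p = 0.542), or 0.05 without WT OIR replicate 3 (0.913), and -0.25 in Casp1 KO (adjusted p = 0.301).

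Other parts of the translation machinery were followed as lists. Of 35 translation factors, 0 rose and 1 fell with OIR in WT (where 1.58% and 2.29% of all genes did), namely the neuronal elongation factor Eef1a2, with 260, 222 and 212 CPM in normoxia and 120, 142 and 125 CPM in OIR (log2 fold change -0.85, adjusted p = 1.51e-07). Neuron markers fell between the same groups, 6 of 8 of the retinal ganglion cell list, with sums of 2695 to 2904 CPM in normoxia and 1324 to 1660 CPM in OIR, and 5 of 7 of the amacrine cell list, with sums of 694 to 754 CPM and 459 to 550 CPM, and their part was not tested. With OIR in Casp1 KO, 6 of 35 rose and 2 fell, where 2.61% and 2.03% of all genes did. The 6 included Eef2, which moves the ribosome along the mRNA, with 1137, 1005 and 1042 CPM in normoxia and 1374, 1455 and 1249 CPM in OIR (log2 fold change 0.37, adjusted p = 2.53e-06), and Pabpc1, which binds the poly(A) tail (0.33, adjusted p = 7.82e-05). The mRNAs of both are known to carry a terminal oligopyrimidine tract, as those of the ribosomal proteins do. The factors that fell were Eif2s2 (-0.30, adjusted p = 0.00902), a subunit of the factor that delivers the initiator tRNA, and the helicase Eif4a2 (-0.77, adjusted p = 0.0239). In normoxia 2 of 35 were higher in Casp1 KO than in WT, Pabpc1 (0.38, adjusted p = 1.29e-05) and Eif3e (0.31, adjusted p = 0.0444), and 0 were lower, where 0.476% and 0.56% of all genes were. In OIR 0 differed between the genotypes, where 0.263% of all genes were higher and 0.312% lower. The summed level of the 35 was 9049 CPM in WT OIR replicate 3, against 7876 and 7873 CPM in WT OIR replicates 1 and 2.

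Among 38 genes of ribosome assembly and RNA polymerase I, 1 passed, the nucleolar protein gene Npm1, which fell with OIR in Casp1 KO from 147, 160 and 140 CPM to 119, 113 and 114 CPM (log2 fold change -0.36, adjusted p = 0.0259), 1 of 38 being near the 2.03% of all genes that fell there. Among 20 regulators around mTOR, LARP1 and MYC, Ddit4, an inhibitor of mTORC1 induced by hypoxia, rose with OIR in Casp1 KO from 208, 253 and 231 CPM to 362, 385 and 321 CPM (log2 fold change 0.64, adjusted p = 4.99e-11), and so did Max, the partner of MYC (0.46, adjusted p = 0.00106), 2 of 20 where 2.61% of all genes rose. With OIR in WT, 0 of the 20 passed, where 1.58% of all genes rose and 2.29% fell. In normoxia Ddit4 was lower in Casp1 KO than in WT (-0.32, adjusted p = 0.0270), 1 of 20 where 0.56% of all genes were lower. Of 77 mitochondrial ribosomal proteins, 0 passed in any comparison, where 0.263% to 2.61% of all genes passed in each direction.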

How the data were processed

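Retinal RNA from 12 libraries was measured as 3′ tags (QuantSeq FWD). Per the labels and the study's methods, the authors aligned the reads to mm10 with STAR 2.7.5a and deposited HTSeq 0.6.1 counts per gene symbol, not normalized. The annotation, strand setting and treatment of reads with several matches are not given in the sources used here. Groups came from the labels. Genes with 1 count or more in the libraries of a fit were tested with glmQLFit and glmQLFTest of edgeR 4.0.16 (R 4.3.3, TMM factors, Benjamini-Hochberg over all genes, threshold 0.05), each pair of groups on its own 6 libraries and the interaction on 12. CPM used TMM over 12 libraries. Median log2 fold changes, of members and of all genes, were taken over those with at least 10 reads in the fitted libraries. SEs came from the fold change and test statistic. The fits were tested on simulated data. Alternatives were DESeq2 1.42.0, other scalings and filters, the replicate block, 1 fit of all libraries, added reads of the pseudogenes named after a member, and each library left out. Leaving out WT OIR replicate 3 together with filterByExpr was added after seeing the data. Named in each comparison were up to 5 higher and 5 lower members with the smallest p, with the stalk genes, Rpsa, paralog pairs, Rpl41, Rps6, Rpl22, Rpl13a and the extremes of level, and from each list up to 2 genes each way. Members named only for a result without WT OIR replicate 3, or for WT OIR replicates 1 and 3, were chosen after their values were seen. Members and lists were chosen with earlier results of these data known. Starts came from RefSeq (63 of 84 members matched), positions from GENCODE vM21.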

Additional observations from a re-analysis of the deposited data

Results flagged for a closer look

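In all 12 libraries, 0 of 84 ribosomal protein genes passed the interaction of OIR and genotype (edgeR quasi-likelihood, Benjamini-Hochberg adjustment). Without WT OIR replicate 3, Rps27a, Rps9 and Rpl7a passed above 0 (adjusted p = 0.0138, 0.0216 and 0.0219), where 1.27% of all genes did. Among the lists of translation, ribosome assembly, mTOR, mitochondrial ribosome and respiratory chain genes, 3 passed with all 12 libraries. Each had a larger log2 fold change in libraries labelled Casp1 KO. The list and marker values in this paragraph are from all 12 libraries. For Eef1a2 the difference was 0.66 (adjusted p = 0.0127), with 209, 193 and 220 CPM in Casp1 KO normoxia and 179, 194 and 179 CPM in Casp1 KO OIR beside the fall in WT. For Uqcrc1, a subunit of respiratory complex III, it was 0.61 (adjusted p = 0.0181), with 241, 242 and 245 CPM in WT normoxia, 201, 205 and 233 CPM in WT OIR, 217, 207 and 205 CPM in Casp1 KO normoxia and 268, 307 and 269 CPM in Casp1 KO OIR. For Ddit4 it was 0.60 (adjusted p = 0.0168), with 251, 316 and 297 CPM in WT normoxia and 257, 306 and 320 CPM in WT OIR. Of the marker lists, 9 of 14 lens, 4 of 8 Muller glia and 3 of 7 amacrine genes passed above 0, 2 of 5 red blood cell genes below 0, and 1 of 9 nuclear transcripts above and 4 below, where 0.604% of all genes passed above and 0.527% below.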

How the results depend on the processing

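Of the counts and medians recomputed as planned, 33 moved and 192 did not. Of the recomputed results of single genes, 0 turned direction, 112 lost their call and 365 kept both. For OIR in WT, members called higher numbered 0 with DESeq2, with filterByExpr or when each library had to hold at least 10 counts, and 1 with the replicate block, where Rplp2 had an adjusted p of 0.117. All 12 libraries in one fit gave 1 higher and 0 lower for OIR in Casp1 KO, 1 higher for Casp1 KO against WT in normoxia, and 1 higher and 2 lower in OIR. Replicate numbers did not pair the libraries, since 1 of 18 pairs correlated above 0.1. Apart from that 1 member higher for OIR in WT, the block gave 4 members higher in normoxia and otherwise the same counts. With each library left out in turn, members called higher and lower ran from 0 to 4 and 0 to 5 for OIR in WT, 1 to 3 and 2 to 7 for OIR in Casp1 KO, 1 to 4 and 0 throughout for normoxia, 0 to 10 and 0 to 1 for OIR between genotypes, and 0 to 3 and 0 to 4 for the interaction. The medians ran from -0.079 to 0.183, -0.123 to -0.048, 0.061 to 0.104, -0.188 to 0.118 and -0.300 to -0.00045. Without WT OIR replicate 3 and with filterByExpr, chosen after seeing the data, counts were 0 and 3 for OIR in WT, 9 and 0 for OIR between genotypes (median 0.114) and 1 and 0 for the interaction (median 0.0077). Leaving out WT OIR replicate 1 gave 4 higher for OIR in WT and 4 below 0 for the interaction, and leaving out Casp1 KO normoxia replicate 3 gave 2 lower for OIR in Casp1 KO and 1 higher in normoxia. Depth limits the lowest members, since Rpl39l and Rpl3l had 13 and 14 reads in all and no fold is given for them.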

Other observations

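The nuclear genes of the respiratory chain, the other large group of abundant housekeeping genes in these libraries, were followed in the same way. Of 78 subunits, 2 rose and 13 fell with OIR in Casp1 KO (edgeR quasi-likelihood, Benjamini-Hochberg adjustment), where 2.61% and 2.03% of all genes did, with a median log2 fold change of -0.12 against 0.01 for all genes. Cox7b, a subunit of cytochrome c oxidase, fell from 187, 170 and 180 CPM to 128, 92.0 and 118 CPM (log2 fold change -0.66, adjusted p = 1.01e-07), and Cox7c, of the same complex, from 133, 205 and 198 CPM to 96.9, 111 and 156 CPM with overlapping groups (-0.54, adjusted p = 3.22e-05, and from 2.93e-08 to 0.303 over the alternatives, the highest with DESeq2). Uqcrc1 (0.44, adjusted p = 0.000108) and Sdha of complex II (0.31, adjusted p = 0.0286) rose. In WT, OIR gave 0 higher and 1 lower, where 1.58% and 2.29% of all genes passed, namely Cox7b (-0.48, adjusted p = 0.0156), with adjusted p from 3.99e-05 to 0.214 over the alternatives and 0.0561 with DESeq2. The summed level of the 78 was 18147 CPM in WT OIR replicate 3 against 15055 and 14877 CPM in replicates 1 and 2, and without replicate 3 the log2 fold change of Cox7b was -0.61 (adjusted p = 3.99e-05).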
